A study of Mus musculus with 4 samples.

Results

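Map3k5 encodes ASK1, a stress-activated kinase of the MAP kinase cascade, and it lies on mouse chromosome 10. The genes described here are its chromosomal neighbours. They were chosen by position alone, as the genes with an array probe between 10000000 and 30000000 on chromosome 10 of the assembly mm9, and Map3k5 itself and long intergenic transcripts were left out. This gave 153 gene names, measured by 193 probes, of 30143 gene names and 39430 probes of the same kind on the whole array. RefSeq held 109 of the 153 names, and the other 44 were transcript, clone or predicted names.

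The comparison was of 4 groups of male mice aged 10 weeks, each as 1 RNA pool of 3 mice on 1 one-colour Agilent array. The groups were WT iBAT, ASK1KO iBAT, WT eWAT and ASK1KO eWAT, where iBAT is interscapular brown adipose tissue and eWAT is epididymal white adipose tissue. The mice were unchallenged, and the study used C57BL/6J mice unless it stated another strain. ASK1KO mice lack ASK1 in the whole body, and the strain of the embryonic stem cells in which the gene was first targeted is not given in the sources used here. The study bred its WT and its ASK1-deficient mice separately. With 1 array per group there was no biological replicate, so no genotype difference within a tissue has a test. Differences in cell composition, in RNA per cell, between the pooled mice and between the separately bred colonies cannot be told apart from genotype.

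When a gene is inactivated by targeting and the mutation is then carried through crosses, the DNA on both sides of it is inherited with it until recombination separates them. Neighbouring genes can therefore differ between a mutant and a control colony by their own sequence as well as by the loss of the targeted gene. An array probe reads only the short piece of transcript that it matches, so a change of sequence under the probe, a change of transcript form and a change of transcript amount can each alter its signal.

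Brown adipocyte markers marked the iBAT pools, with a summed scaled level of 3137 in WT iBAT against 35.4 in WT eWAT over 7 genes. The pools of a tissue also differed from each other in transcripts of other tissues. The brown adipocyte sum was 10.3 in ASK1KO eWAT, where Elovl3 was not well above background, the sum of 6 skeletal muscle markers was 8.36 in WT eWAT and 4.30 in ASK1KO eWAT, and that of 8 hepatocyte markers was 24.6 and 6.85. In iBAT these sums were 3137 and 2577, 613 and 614, and 11.1 and 12.5. The hepatocyte sum in iBAT rests on its brightest members, and Ahsg, Alb, Cps1, Fgb and Ttr were not well above background in WT iBAT while all 8 markers were in ASK1KO iBAT, where Alb had a signal of 115.5 against 7.50. The part of such cells in the differences below was not tested.

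On the 4 arrays at least 52.1% of probes were well above background, which is the scanner software's call that a spot is brighter than its surroundings. The 2 Map3k5 probes differed from each other. At the probe that starts at 19860474 the signal was 448 in WT iBAT, 116.7 in ASK1KO iBAT, 701 in WT eWAT and 194.1 in ASK1KO eWAT, which after scaling is 4.004-fold lower in iBAT and 3.40-fold lower in eWAT. Signals are given here as the scanner software wrote them, before scaling, and the eWAT arrays were brighter as a whole. At the probe that starts at 19862193 the log2 ratio of ASK1KO over WT was -0.06 in iBAT and -0.51 in eWAT, so that stretch of the transcript was still detected in the ASK1KO pools.

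The probes of Adat2, Hebp2, Map7 and Akap7 are shown here by the first 30 of their 60 bases, 5′ to 3′ as deposited. The signal of a probe depends on its letters. All lie on chromosome 10 of mm9, and the files hold no exon or untranslated region for them.
Adat2, plus strand, chr10:13282655-13282714: gaaatcctgattctgtaatgatcaacgtct
Hebp2, minus strand, chr10:18260805-18260864: agtgttttcggcttgagctaccactctgca
Map7, plus strand, chr10:19998061-19998120: attcctttgaaaccaattttggcctttaat
Map7, plus strand, chr10:20000837-20000896: tcctttagatcaaagaatttggttctgctc
Akap7, minus strand, chr10:25003766-25003825: cccaaagagaagcaaagaagaagaagaaga
Akap7, minus strand, chr10:24889928-24889987: atgcctggtaaagtgtttatgaactctcag
Akap7, minus strand, chr10:24888897-24888956: gtattcctttatacggccctacgttttcat

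A gene was called measured in a tissue when at least 1 of its probes was well above background in both genotypes, and its log2 ratio is the mean over such probes after each array was scaled to its 75th percentile. Of the 153 flanking genes, 77 were measured in iBAT, 84 in eWAT and 76 in both, while 51 were not well above background on any array. The share of flanking probes well above background ran from 56.0% to 62.2% over the arrays, against 59.8% to 67.0% for all probes of the same kind. A further 7 genes in iBAT and 12 in eWAT have only a bound on their fold difference, from a probe above background in 1 genotype alone.

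Most flanking genes were at a similar level in both genotypes. In iBAT 64 of 77 and in eWAT 78 of 84 lay within 1.5-fold. At least 2-fold differences were seen for 4 of 77 genes in iBAT, which is 5.19% against 1.86% of all 17894 genes measured there. In eWAT they were seen for 3 of 84 genes, which is 3.57% against 1.17% of 19331. At 1.5-fold the counts were 13 of 77, or 16.9% against 8.77%, in iBAT and 6 of 84, or 7.14% against 4.25%, in eWAT. These shares rest on very few genes, and 1 gene more or less moves each 2-fold share by over 1 percentage point.

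In iBAT, Adat2 and Ccn2 were at least 2-fold higher in ASK1KO, a direction in which 0.9% of all genes passed, and Hebp2 and Echdc1 were at least 2-fold lower, where 0.956% of all genes passed. In eWAT, Map7 and Adat2 were at least 2-fold higher, against 0.352% of all genes, and Hebp2 was at least 2-fold lower, against 0.823%. The last gene inside the 2-fold limit in iBAT was Ccn2 at a log2 ratio of 1.02, and the first outside it was Cited2 at 0.89. In eWAT the last inside was Hebp2 at -1.23 and the first outside was Epm2a at -0.83.

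**Figure D1:**
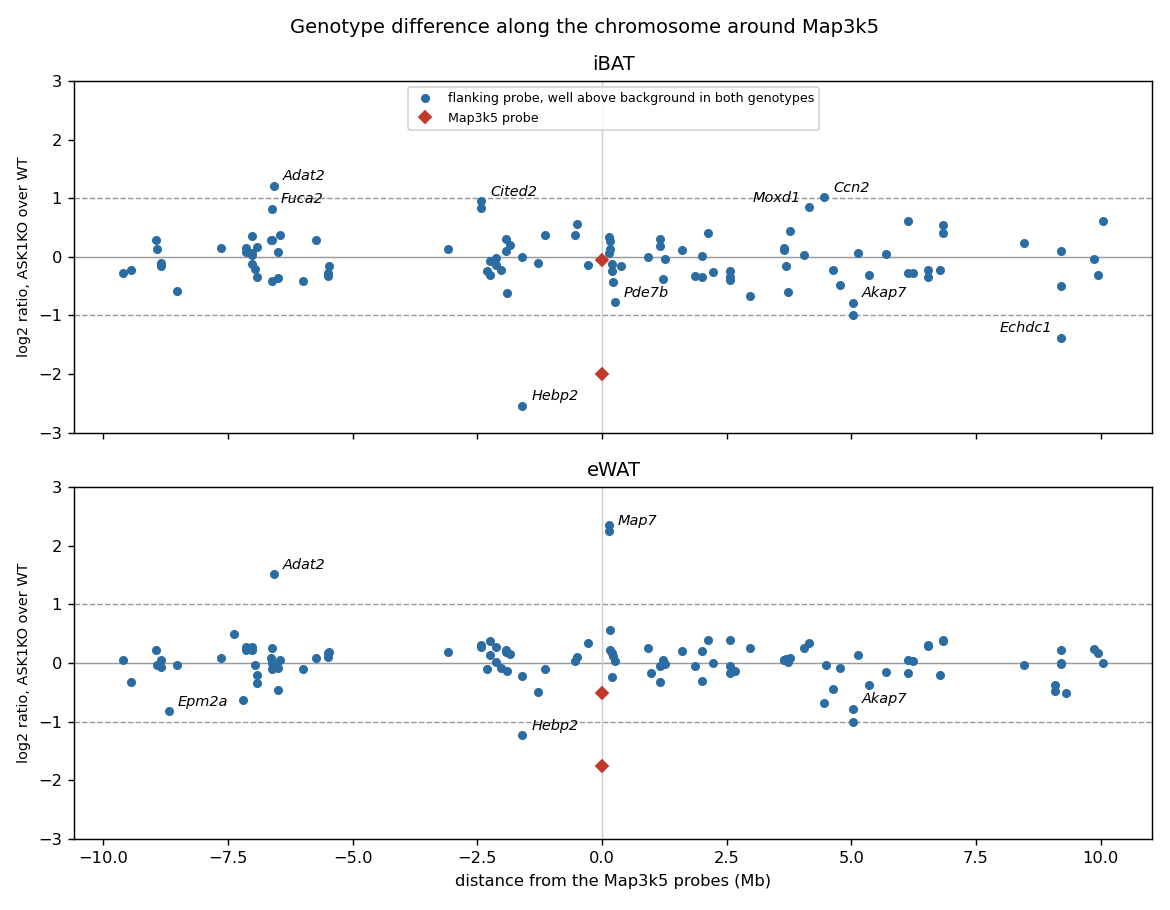
Log2 ratio of ASK1KO over WT for each flanking probe that was well above background in both genotypes, against its distance from the Map3k5 probes in Mb, with iBAT above and eWAT below, 1 array per genotype and tissue. Blue points are flanking probes, red diamonds are the 2 Map3k5 probes and dashed lines mark 2-fold; the points past 2-fold were spread over both sides of Map3k5 and most probes lay near 0.

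Adat2 and Hebp2 were the 2 flanking genes at least 2-fold apart the same way in both tissues. They are 2 of 76, or 2.63%, against 0.0858% of the 17481 genes measured in both tissues. At 1.5-fold the count was again 2 of 76, with the same 2 genes, against 0.664%.

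Adat2 encodes the catalytic subunit of the enzyme that converts adenosine to inosine in the anticodon of transfer RNAs. Its signal was 328 in WT iBAT, 794 in ASK1KO iBAT, 427 in WT eWAT and 1147 in ASK1KO eWAT. Both ASK1KO pools were above both WT pools. On the log2 scale the ratio reached 1.21 in iBAT and 1.51 in eWAT, or 2.32-fold and 2.85-fold higher, and it ranked 83rd from the highest of all measured genes in iBAT and 18th in eWAT. Adat2 lies 6.58 Mb before Map3k5 and has 1 probe.

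Hebp2 encodes a heme-binding protein and lies 1.60 Mb before Map3k5. Its signal was 463 in WT iBAT, 83.3 in ASK1KO iBAT, 190.5 in WT eWAT and 76.6 in ASK1KO eWAT. Both ASK1KO pools were dimmer than both WT pools, while WT iBAT was well above WT eWAT. The log2 ratio was -2.54 in iBAT, the 4th lowest of all measured genes, and -1.23 in eWAT, or 5.80-fold and 2.34-fold lower. With normexp background correction, which compresses dim signals, the iBAT value was -1.83, and the eWAT value was -0.69 and no longer past 2-fold. In WT the level of Hebp2 was higher in iBAT than in eWAT by 2.20 on the log2 scale, and in ASK1KO that difference was 0.89.

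The error that these arrays can show is technical. Probes printed as 5 or more spots gave a median SD of the log2 ratio, between spots of the same array pair, of 0.24 in iBAT and 0.22 in eWAT for signals under 100, of 0.11 and 0.087 for signals of 100 to 1000, and of 0.058 and 0.045 above 1000. One flanking gene, Ahi1, a gene of the ciliary base, was printed as 10 spots and was dim, with a median signal of 24.3 in WT iBAT and 48.8 in WT eWAT. Its log2 ratio was -0.0045 ± 0.42 (SD between spots, n = 10) in iBAT and 0.25 ± 0.18 (n = 9) in eWAT. The differences of Adat2 and Hebp2 are several times these spreads in both tissues, which do not include the spread between mice.

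A fit of genotype and tissue together over the 4 arrays, in which the tissues stand in for replicates and 1 residual degree of freedom is left, called no gene. In this limma fit an adjusted p under 0.05 was reached by 0 of 17479 genes, and 995, or 5.69%, had an unadjusted p under 0.05. Among the 76 flanking genes the unadjusted count was 10, or 13.2%. Adat2 had the lowest adjusted p of the flanking genes, 0.585 by limma, at a mean log2 ratio of 1.36, and Hebp2 had an adjusted p of 0.586 by limma at -1.88. Whether the iBAT and eWAT pools of a genotype came from the same mice is not given in the sources used here.

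**Figure D2:**
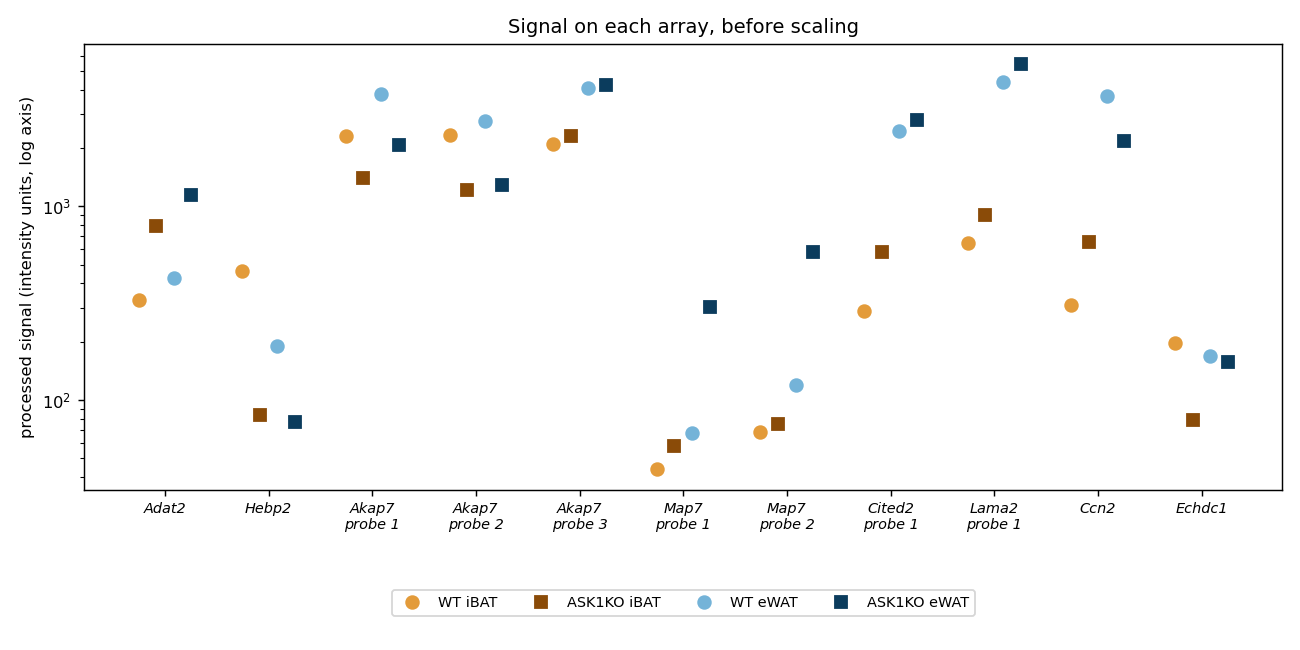
Processed signal, in intensity units on a log axis and before scaling, of probes of the flanking genes named on the horizontal axis, with 1 point per array; circles are WT, squares are ASK1KO, orange and brown are iBAT, light and dark blue are eWAT. Probes of a gene are numbered in order of position on the chromosome, and signals are to be compared within a probe and not between probes. Both ASK1KO squares of Adat2 lay above its WT circles and both of Hebp2 lay below them, Akap7 probes 1 and 2 were lower in ASK1KO and probe 3 was not, and both Map7 probes were high in ASK1KO eWAT.

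Akap7 encodes an anchoring protein that holds protein kinase A at membranes and other sites. Among probes well above background in both genotypes, it showed the largest disagreement within 1 flanking gene in either tissue. It has 3 probes to the same transcript, 5.09 Mb after Map3k5 on average. The 2 probes near the 3′ end, at positions 3062 and 2031 of the transcript, were lower in ASK1KO in both tissues, and the probe at position 278 was not.

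At position 3062 the signal was 2320 in WT iBAT, 1407 in ASK1KO iBAT, 3802 in WT eWAT and 2088 in ASK1KO eWAT, with a log2 ratio of -0.78 in both tissues. At position 2031 it was 2340, 1222, 2758 and 1291 in the same order, with -0.999 in iBAT and -1.01 in eWAT. At position 278 it was 2112, 2302, 4098 and 4228, with 0.06 and 0.13. The 3 probes thus gave nearly the same log2 ratio in iBAT and eWAT each, and the first pair differed from the third by more than the spread between spots of such bright probes. The gene mean, -0.57 in iBAT and -0.55 in eWAT, hides this and is under 1.5-fold. RefSeq lists 2 transcription starts for Akap7, and neither a change of transcript form nor a difference of sequence under the probes was tested.

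Over all flanking genes, Akap7 included, probes of the same gene mostly gave like values. Of 22 genes with 2 or more measured probes in iBAT, 19 had probes within 1.5-fold of each other, with a median difference of 0.18 on the log2 scale. In eWAT this held for 22 of 23 genes, all but Akap7, with a median of 0.24. These counts leave out probes above background in 1 genotype alone. In eWAT such a probe of Enpp1 was at least 2.30-fold lower in ASK1KO, while its other probe had a log2 ratio of -0.03. Of the genes that the position places closest to Map3k5, Mtfr2, which encodes a regulator of mitochondrial fission, has probes that cannot be read alike. Its probe at chr10:20073205-20073264 was not well above background on any array, and the other, at chr10:20080996-20081055, had a signal of 57998 in WT iBAT and holds the repeat shown in capitals, which is part of a run of 26 bases of alternating G and T.
Mtfr2, plus strand, last 30 bases: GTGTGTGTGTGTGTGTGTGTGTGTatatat

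Map7 is the nearest measured gene after Map3k5, at 0.138 Mb, and encodes a microtubule-associated protein that recruits kinesin. It was high in 1 of the 4 pools. The probe that starts at 19998061 gave 43.7 in WT iBAT, 57.9 in ASK1KO iBAT, 67.5 in WT eWAT and 303 in ASK1KO eWAT, and the probe that starts at 20000837 gave 68.2, 74.9, 119.9 and 578. The probes gave log2 ratios of 2.25 and 2.36 in eWAT, and 0.34 and 0.07 in iBAT. By the gene mean Map7 was 4.95-fold higher in ASK1KO eWAT, the 6th highest of all 19331 genes there, and its difference between the tissues was not tested.

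Within 1 Mb of Map3k5 no other gene passed 2-fold among those measured, and Pde7b, which encodes a phosphodiesterase of cyclic AMP, came nearest to it. At its probe that starts at 20119598 the signal was 103.9 in WT iBAT, 63.6 in ASK1KO iBAT, 26.7 in WT eWAT and 25.9 in ASK1KO eWAT, with log2 ratios of -0.77, or -0.36 with normexp, and 0.04, or -0.13 with normexp. Its other probe was above background in WT iBAT alone, which makes it at least 2.49-fold lower in ASK1KO iBAT, although its log2 ratio with normexp was -0.48, which is under 1.5-fold. Ifngr1, the ligand-binding subunit of the interferon gamma receptor, had 0.37 in iBAT and 0.03 in eWAT, Pex7, a receptor for import into peroxisomes, had -0.14 and 0.33, and Bclaf1, an RNA-binding regulator of transcription, had -0.18 and -0.03. Il20ra, Olig3 and Slc35d3 were not well above background on any array.

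Echdc1 and Ccn2 passed 2-fold in iBAT and not in eWAT in the same direction. Echdc1, which encodes an enzyme that clears a faulty product of fatty acid synthesis, had a signal of 197 in WT iBAT, 79.0 in ASK1KO iBAT, 167.5 in WT eWAT and 156.7 in ASK1KO eWAT. After scaling, its log2 level was -0.85 in WT iBAT, -2.23 in ASK1KO iBAT, -2.01 in WT eWAT and -2.02 in ASK1KO eWAT, so WT iBAT stood above the other pools, and the log2 ratio was -1.38 in iBAT beside -0.01 in eWAT. Ccn2, a secreted matrix-associated growth regulator, had 308, 652, 3743 and 2186 in the same order, with 1.02 in iBAT and -0.69 in eWAT. Both eWAT pools were above both iBAT pools for Ccn2, and the genotype difference had opposite signs in the tissues, which was not tested. Both iBAT differences fell under 2-fold with normexp background correction, reaching -0.91 for Echdc1 and 0.86 for Ccn2. Ccn2 also fell under 2-fold with median centring, where it was 0.94, and with the authors' deposited signal values.

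Cited2, Moxd1 and Lama2 were higher in ASK1KO in both tissues, at under 2-fold. Cited2 encodes a transcriptional co-regulator that binds the co-activators CBP and p300, and its probes gave log2 ratios of 0.95 and 0.83 in iBAT and 0.27 and 0.30 in eWAT. Moxd1, a copper-dependent monooxygenase, had 0.85 in iBAT, at a signal of 44.4 in WT and 83.7 in ASK1KO, and 0.34 in eWAT, which became 0.44 and 0.11 with normexp background correction. Lama2, a laminin chain of the basement membrane around muscle and fat cells, had 0.41 and 0.55 in iBAT and 0.40 and 0.37 in eWAT at its 2 probes, which were both bright.

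Dim genes could give only bounds. Tmem200a, which encodes a membrane protein, was above background in ASK1KO alone in both tissues, at 13.5 in WT iBAT, 33.5 in ASK1KO iBAT, 11.3 in WT eWAT and 36.8 in ASK1KO eWAT. It was at least 1.63-fold higher in iBAT and at least 2.07-fold higher in eWAT. In iBAT Gm10824 was at least 5.06-fold lower and NAP059116-1 at least 3.39-fold higher in ASK1KO. In eWAT A230061C15Rik was at least 2.37-fold higher, and Raet1e, a ligand of the activating receptor of natural killer cells, was at least 4.01-fold lower. H60b, another such ligand, was at least 1.58-fold lower in ASK1KO iBAT and at least 4.21-fold higher in ASK1KO eWAT.

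By role, the flanking genes fell into groups that were set out from their names with earlier results of these data known. Of the 7 immune genes 4 were measured in iBAT, and all 4 were above 0, with a median log2 ratio of 0.47 against -0.05 over all genes. They were Samd3 at 0.61, Il22ra2, a secreted decoy receptor, at 0.56, Tnfaip3, an inhibitor of NF-κB signalling, at 0.38 and Ifngr1 at 0.37. None of them passed 2-fold, and 57.6% of other genes were below 0 in iBAT. The group left out the killer cell ligand genes Raet1b, at -0.25 in iBAT, and H60b, at least 1.58-fold lower in ASK1KO iBAT. In eWAT 5 of the 7 listed genes were measured, with a median of -0.10 against 0.03. Stx11, a syntaxin of secretory granules in immune cells, was the lowest of them at -0.63. In iBAT 8 of 8 macrophage markers were also above 0, with a median of 0.65 and a summed level of 38.7 in WT and 47.5 in ASK1KO, and in eWAT 0 of 8 were above 0, with a median of -0.06. The 4 measured T cell markers had 0 of 4 above 0 in iBAT, with a median of -0.17, and 1 of 4 above 0 in eWAT, with a median of -0.54, while Cd8a was not well above background on any array. Their summed level was 10.73 in WT iBAT, 8.75 in ASK1KO iBAT, 6.53 in WT eWAT and 5.75 in ASK1KO eWAT. The part of macrophage or T cell content in the immune genes was not tested.

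Of the 9 genes listed under metabolic enzymes and transport 6 were measured in iBAT, and all 6 were below 0, as were 57.6% of other genes. Their median log2 ratio was -0.55 against -0.05 over all genes. Enzymes listed in other groups went both ways in iBAT. Moxd1 had 0.85, Fuca2 0.47 and Vnn1 0.45, while Vnn3 had -0.61 and Enpp3 -0.22. Of the 6, Hebp2, which is a heme-binding protein, and Echdc1 passed 2-fold, and Pde7b had -0.77. The glucose transporter Slc2a12, the kinase Sgk1 and the aldehyde dehydrogenase Aldh8a1 had -0.34, -0.32 and -0.04. In eWAT 6 of 7 were below 0, with a median of -0.05 against 0.03, and Hebp2 alone passed 2-fold. Epm2a, which encodes the glycogen phosphatase laforin, had -0.83 in eWAT, or -0.26 with normexp. In iBAT it was above background in WT alone, with a signal of 29.9 in WT and 16.4 in ASK1KO, and at least 1.81-fold lower in ASK1KO, where its log2 ratio with normexp was -0.25.

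The remaining groups had 1 gene past 2-fold or none. Of 12 transcription regulators 9 were measured in iBAT, with a median of -0.27, and 11 in eWAT, with 0.05, and none passed 2-fold in either. In iBAT Cited2 at 0.89 and Eya4 at -0.66 were the extremes. Among 16 genes of the cytoskeleton and membrane traffic 14 were measured in each tissue, and Map7 in eWAT was the 1 gene past 2-fold, with medians of -0.12 in iBAT and -0.09 in eWAT. Among 5 genes set out as those of RNA, transfer RNA and translation, to which Mtfr2 does not belong by its role, Adat2 was the 1 gene past 2-fold, while Rps12, a protein of the small ribosomal subunit, had 0.13 in iBAT and 0.05 in eWAT.

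Of 6 secreted, matrix and adhesion genes 4 were measured in iBAT, with a median of 0.39, and 5 in eWAT, with -0.50. The 5 in eWAT included Ccn2, the Wnt enhancer Rspo3 at -0.52, the desmosomal gene Perp at -0.50, the adhesion receptor Adgrg6 at 0.09 and Lama2 at 0.38. The 5 extracellular enzymes had medians of 0.11 and 0.01, with Vnn3 at -0.61 and Vnn1 at 0.45 in iBAT, both pantetheinases. The 3 peroxisome and lysosome genes and the 4 phosphatase and ubiquitin ligase genes were within 1.5-fold in both tissues. None of the 14 trace amine receptors, most of which are olfactory receptors for amines and which stand as a cluster in this interval, was measured in either tissue.

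The differences of the flanking genes were a little larger in size than those of other genes. The median size of the log2 ratio was 0.25 in iBAT against 0.20 elsewhere, and 0.15 in eWAT against 0.11. The median of the signed log2 ratio was -0.13 in iBAT against -0.05, with 31 genes above 0 and 46 below, or 59.7% below against 57.6% of other genes. In eWAT it was 0.02 against 0.03, with 45 above and 39 below, or 46.4% below against 43.3%. No test of these shifts could be made with 1 array per group.

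**Figure D3:**
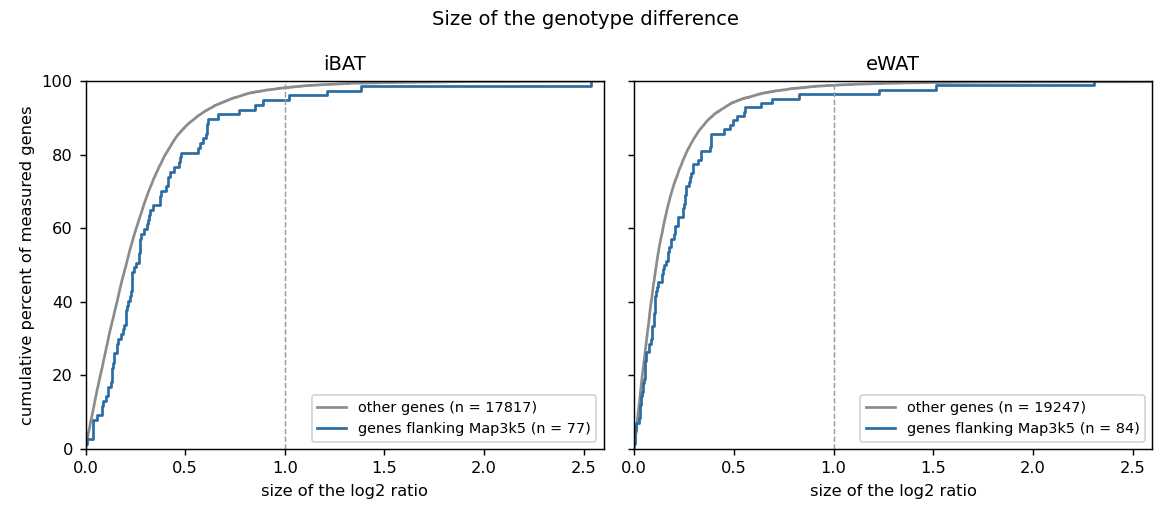
Cumulative percent of measured genes, on the vertical axis, whose log2 ratio of ASK1KO over WT is at most the size on the horizontal axis, for the genes flanking Map3k5 in blue and all other genes in grey, with iBAT on the left and eWAT on the right. The dashed line marks 2-fold; the blue curve ran to the right of the grey one in both tissues, with 77 flanking genes in iBAT and 84 in eWAT.

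By distance from Map3k5 the sizes followed no single order. In iBAT the median size was 0.24 in the stretch more than 5 Mb before it, 0.22 in the 5 Mb before it, 0.25 in the 5 Mb after it and 0.28 beyond that, with 19, 16, 27 and 15 measured genes. In eWAT it was 0.11, 0.17, 0.12 and 0.19 in the same order, with 21, 16, 29 and 18 genes. The share of genes at least 1.5-fold apart in iBAT was 10.5%, 18.8%, 18.5% and 20% over these stretches, and in eWAT 14.3%, 6.25%, 6.9% and 0%. Each stretch held at most 1 gene past 2-fold in each tissue. On the rest of chromosome 10 the median size was 0.21 over 755 genes in iBAT and 0.11 over 797 in eWAT, and 2.38% and 0.251% of them passed 2-fold.

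Across the 76 flanking genes measured in both tissues, Pearson's r between the log2 ratios of iBAT and eWAT was 0.43 and Spearman's rho was 0.35, and 65.8% had the same sign. Across the 17405 other genes r was 0.009, rho was 0.079 and 50.2% had the same sign. These are correlations across genes, which are not independent replicates, and the 2 log2 ratios come from separate arrays that share the platform and the 2 mouse colonies. Without Adat2 and Hebp2, r was 0.17 and rho was 0.29 over 74 genes, so much of r rested on those 2 genes.

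**Figure D4:**
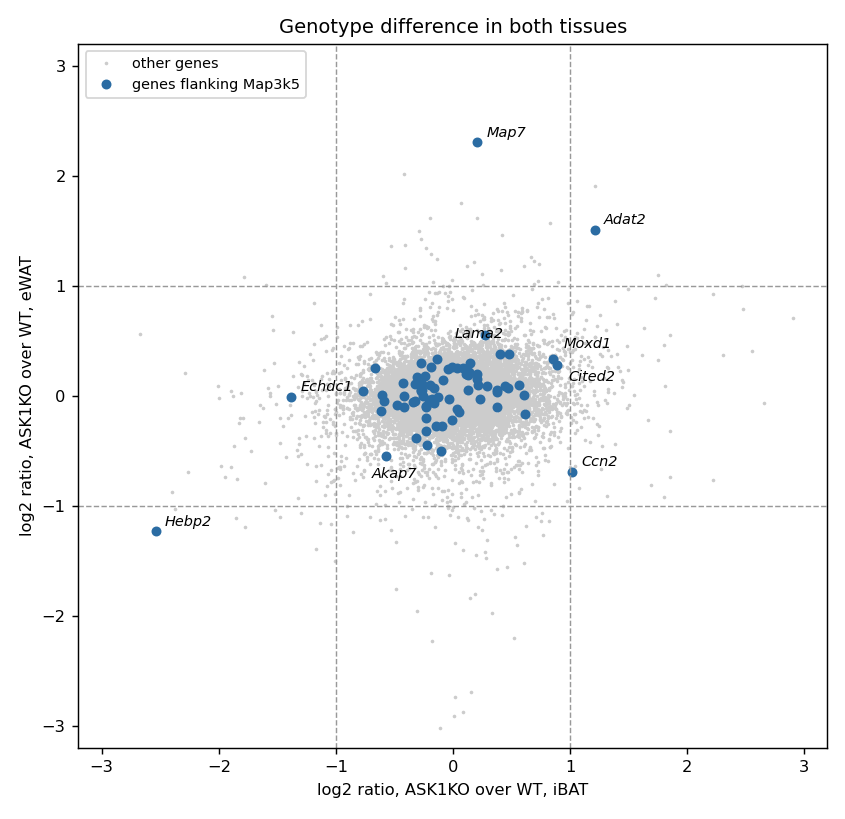
Log2 ratio of ASK1KO over WT in eWAT against that in iBAT, with 1 point per gene measured in both tissues, flanking genes in blue and other genes in grey, and dashed lines at 2-fold; 24 other genes lie outside the plotted range. Adat2 in the upper right and Hebp2 in the lower left are the 2 flanking genes past 2-fold the same way in both tissues, and Map7 is high in eWAT alone.

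The flanking genes also differed between the tissues. In WT 77 genes could be compared, and 16 were at least 2-fold higher in iBAT than in eWAT, against 16.5% of all genes, and 17 were at least 2-fold lower, against 12% of all genes. In ASK1KO 8 of 77 were at least 2-fold higher in iBAT, against 12.2% of all genes, and 16 were lower, against 11.3%. Txlnb, a muscle taxilin, was higher in iBAT by 6.05 on the log2 scale in WT and by 5.92 in ASK1KO, and the summed level of 6 skeletal muscle markers was 613 in WT iBAT and 8.36 in WT eWAT. The part of muscle in the iBAT pools was not tested. Vnn3 was lower in iBAT, with -3.04 in WT and -3.66 in ASK1KO. For Ccn2 the tissue difference was -2.68 in WT and -0.97 in ASK1KO.

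The promoters of Adat2 and Hebp2 are given because each of these genes differed the same way in both tissues, Adat2 upwards and Hebp2 downwards. They come from RefSeq on GRCm38.p6, whose positions are not those of mm9, and run from 250 bases before to 50 after the start, 5′ to 3′ along the gene. Capitals mark TGACG on either strand, the half-site of the cyclic AMP response element to which CREB and ATF factors bind, and ATF factors are known targets of the p38 and JNK kinases below ASK1.
Adat2, plus strand, chr10:13552657-13552956: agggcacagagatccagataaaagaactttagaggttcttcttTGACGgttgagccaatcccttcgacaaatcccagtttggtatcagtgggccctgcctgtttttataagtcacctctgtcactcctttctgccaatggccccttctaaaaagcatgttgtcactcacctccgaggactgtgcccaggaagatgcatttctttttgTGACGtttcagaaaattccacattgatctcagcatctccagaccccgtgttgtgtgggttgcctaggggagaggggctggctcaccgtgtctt
Hebp2, minus strand, chr10:18546027-18546326: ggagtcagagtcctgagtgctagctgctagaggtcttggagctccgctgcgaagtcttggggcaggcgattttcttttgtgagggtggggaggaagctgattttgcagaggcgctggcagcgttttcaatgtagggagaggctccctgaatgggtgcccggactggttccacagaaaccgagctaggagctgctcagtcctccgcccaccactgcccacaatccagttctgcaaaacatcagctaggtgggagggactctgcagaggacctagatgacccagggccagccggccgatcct

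The Adat2 promoter held 2 half-sites and the Hebp2 promoter held 0. TGACG on either strand was present in 20.8% of the 32851 RefSeq promoters of this length and in 22.4% of the promoters of the 89 flanking genes that could be matched. The full element TGACGTCA, which contains the half-site on both strands, was in 1.79% of all promoters and in 3 promoters of flanking genes, and in neither of the 2 shown. A match describes letters in this window and does not show that a factor binds there.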

How the data were processed

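The data were 4 one-colour Agilent whole mouse genome arrays of the 8 × 60K format, 1 each for WT iBAT, ASK1KO iBAT, WT eWAT and ASK1KO eWAT. Per the labels, RNA of 3 mice was pooled for each array and labelled with Cy3. The authors deposited the scanner output of Agilent Feature Extraction 10.7.3.1, whose processed signal is a background-subtracted intensity, and a table of signal values, which was found here to be the processed signal divided by each array's median. No control spot, and no spot that the scanner software marked as an outlier, was used.

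The processed signal was averaged over spots of a probe, put on the log2 scale and reduced by the array's 75th percentile, which was 356, 371, 673 and 634 intensity units in the order above. The ratio is ASK1KO over WT. The positions are those of mm9 in the files. Long intergenic probes were recognised by their description, since no gene name in the files begins with that word, and 71 such probes of 25 names were left out of the interval. A bound sets the brighter genotype's scaled signal against the lowest well-above-background signal of the other array or the dim probe's own signal, whichever was higher. A called difference is a fold of 2 or more, without a test. Genes were named where they passed 2-fold in a tissue or 1.5-fold the same way in both, lay within 1 Mb of Map3k5, were among the 4 brightest of a role group, or had probes 2-fold apart. A few others (Samd3, Eya4, Epm2a, Aldh8a1, Rspo3 and Txlnb) were named after their values were seen. One gene that passed the rule is not reported here. The joint fit of genotype and tissue used limma with empirical Bayes and Benjamini-Hochberg adjustment. It was also run on simulated data with technical noise alone and equal changes in both tissues. That run cannot show how the fit performs with variation between mice. The members, role groups and marker lists were chosen with earlier results of these data known. Fits ran in R 4.3.3 with limma 3.58.1, and all else in Python 3.11.15 with pandas 2.3.3 and numpy 2.4.6. The alternatives tried were other background corrections, scalings, filters, probe rules and intervals. Precision is limited by the number of arrays, and no error between mice could be measured. Exon and untranslated region were not assigned, since no mm9 annotation was used here.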

Additional observations from a re-analysis of the deposited data

Results flagged for a closer look

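Ccn2 and H60b differed by genotype at least 1.5-fold in opposite directions in the 2 tissues, and the difference between the tissues was not tested, since each condition has 1 array. For Ccn2 the log2 ratio of ASK1KO over WT was 1.02 in iBAT and -0.69 in eWAT. H60b was above background in 1 genotype alone in each tissue, and it was at least 1.58-fold lower in ASK1KO iBAT and at least 4.21-fold higher in ASK1KO eWAT. The summed scaled level of the 8 macrophage markers was 38.7 and 47.5 in WT and ASK1KO iBAT and 136.4 and 128.0 in eWAT, and its part in either gene was not tested.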

How the results depend on the processing

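The count of flanking genes at least 2-fold apart in iBAT was 4 of 77, or 5.19% against 1.84% of other genes. It was 2 of 77 with normexp background correction, or 2.6% against 0.685%. With no filter on dim probes it was 19 of 153, or 12.4% against 5.83%. It was 2 of 43 within 5 Mb of Map3k5, or 4.65% against 1.84%. At a 1.5-fold threshold it was 13 of 77, or 16.9% against 8.74%. In eWAT it was 3 of 84, or 3.57% against 1.16% of other genes. It was 16 of 153 with no filter, or 10.5% against 5.31%, and 6 of 84 at 1.5-fold, or 7.14% against 4.23%. The count past 2-fold the same way in both tissues was 2 of 76, or 2.63% against 0.0747% of other genes. It was 1 of 76 with normexp, or 1.32% against 0.0172%, and 5 of 153 with no filter, or 3.27% against 0.44%. Within 5 Mb it was 1 of 42, or 2.38% against 0.0747%. It was 0 by limma's adjusted p in the joint fit of genotype and tissue. In that limma fit 10 of the 76 flanking genes, or 13.2% against 5.69% of all genes, had an unadjusted p under 0.05. The median log2 ratio was -0.13 in iBAT, and it was -0.025 when arrays were scaled over probes above background on all 4, a setting that shifted the median of all genes by 0.10, and -0.23 with no filter. In eWAT it was 0.02, and it was -0.066 with no scaling and 0.10 with no filter. The cause of the normexp changes was not tested. Of 69 alternatives of these counts and medians 55 kept the value within the limits set, and of 807 for the named genes 657 did and 150 moved. Of those 807, 35 alternatives of 18 values changed sign, all for values under 1.5-fold. The largest were Akap7's, which by its brightest probe were 0.06 in iBAT and 0.13 in eWAT, and the other 33 were for values at most 0.3 in size. The Akap7 probe at position 2031 stayed between -1.08 and -0.88 in iBAT and between -1.09 and -0.98 in eWAT under all 8 scalings. Adding the long intergenic probes and keeping RefSeq names alone were chosen after seeing the data. No paired analysis was possible because each condition has 1 array and so no replicate numbers to pair, beyond the joint fit, which has tissue as a term, and no array was left out. Signals under 100 carry a technical SD of over 0.2 on the log2 scale, so a 1.5-fold difference of a dim gene lies within a few of these SDs.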
